A study of Mus musculus with 3 samples.

Results

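The clustered replication-dependent histone genes encode the linker histone H1 and the core histones H2A, H2B, H3 and H4. They were taken as every gene whose symbol begins with Hist1h, Hist2h, Hist3h or Hist4h, without symbols ending in -ps, which left out Hist3h2bb-ps. This gave 69 of the 26887 genes counted in the data, and all 69 were counted in each of the 3 libraries. They comprised 6 genes of H1, 20 of H2A, 18 of H2B, 12 of H3 and 13 of H4. Hist1, the largest cluster, holds 56 of them on chromosome 13, Hist2 holds 10 on chromosome 3, Hist3 holds 2 on chromosome 11, and Hist4 is a single gene on chromosome 6. The members include 2 annotated as pseudogenes without a coding sequence, Hist1h2aj, counted in H2A, and Hist2h3c2, counted in H3.

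The cells were undifferentiated E14 mouse embryonic stem (ES) cells of the 129/Ola strain, grown feeder-free with LIF, the cytokine that keeps them undifferentiated. RNA was captured by RIA-seq (RNA interactome analysis and sequencing), in which crosslinked cells are lysed and sonicated, antisense oligonucleotides pull down a chosen RNA, and whatever RNA comes with it is sequenced. All 3 libraries shared the fixation in 1% glutaraldehyde for 10 min and the hybridization at 37 °C, and differed in the oligonucleotides: against Actb (Actb RIA-seq, the control), against Malat1, a nuclear long noncoding RNA (Malat1 RIA-seq), or against Tfrc, the mRNA of the transferrin receptor (Tfrc RIA-seq). The study used Malat1 and Tfrc RIA-seq to test RNA-RNA interactions of these targets. There was 1 library per condition, so each comparison is between libraries and has no replicate check, and no test was made. No library without oligonucleotides was analysed here.

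Replication-dependent histone genes are expressed in S phase, when new nucleosomes are assembled on replicating DNA. Unlike nearly all other mRNAs, theirs carry no poly(A) tail. They end instead just after a short conserved stem-loop, which is bound by the stem-loop binding protein and is needed for cleavage, translation and rapid decay of the mRNA at the end of S phase. Most of these genes have no introns and lie in clusters, with many copies of nearly the same coding sequence, and ES cells, which divide fast and spend much of the cycle in S phase, use them heavily.

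The stem-loop is the feature that the class shares and that the selection by symbol did not use. It was searched in the genome sequence (build NCBIM37, the mm9 assembly) as GG, 2 free bases, CTTTT, 1 free base, AG, 2 free bases and CC, on both strands of the 150 bases after each annotated stop codon. Of the 67 members with an annotated stop codon, 61 (91%) held it on the sense strand, against 64 of 21930 protein-coding genes (0.292%) including those 61. The other 3 genes were H2afx, 1700014N06Rik and AI646023. The first base of the match lay 22 to 59 bases after the stop codon, with a median of 31. No match was found in these windows for Hist2h2bb, Hist2h2be, Hist1h4a, Hist1h3g, Hist1h2an and Hist1h2al. The free bases of the stem divided the classes. All 49 matching genes of H1, H2A, H2B and H3 carried CT as the free bases after GG, and all 12 matching H4 genes carried CC or TC there. The stem-loops of 8 genes on which the results below turn are shown 5′ to 3′ on the gene's strand, with the 16 bases of the match in capitals and 5 bases on each side in lower case.

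Hist1h1e (H1, chr13:23713646-23713671, minus strand): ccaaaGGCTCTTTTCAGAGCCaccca
Hist1h2bq (H2B, chr13:21901610-21901635, minus strand): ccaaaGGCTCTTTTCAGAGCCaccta
Hist2h2aa2 (H2A, chr3:96043702-96043727, minus strand): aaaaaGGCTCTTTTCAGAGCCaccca
Hist1h3d (H3, chr13:23668108-23668133, plus strand): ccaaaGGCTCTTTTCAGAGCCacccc
Hist1h3f (H3, chr13:23636796-23636821, plus strand): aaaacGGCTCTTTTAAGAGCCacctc
Hist1h4d (H4, chr13:23673814-23673839, plus strand): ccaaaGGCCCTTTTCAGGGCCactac
Hist1h4j (H4, chr13:21827301-21827326, plus strand): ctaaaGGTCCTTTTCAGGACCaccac
Hist4h4 (H4, chr6:136752514-136752539, minus strand): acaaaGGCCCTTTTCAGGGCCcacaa

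The first sequence pattern, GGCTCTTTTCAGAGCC, was found in 39 members and in no H4 gene. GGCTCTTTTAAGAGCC, as in Hist1h3f, was found in 9. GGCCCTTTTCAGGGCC was found in 8, all of H4, and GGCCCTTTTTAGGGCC and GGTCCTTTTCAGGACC in 2 H4 genes each. Hist2h2ac alone carried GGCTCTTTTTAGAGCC. Genes with nearly identical stem-loops differed widely in their counts, as Hist1h3d and Hist1h3f do below.

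The libraries held 10405209, 10078439 and 14553941 counts (Actb, Malat1 and Tfrc RIA-seq), and 3 counts, taken as the floor, correspond to 0.206 to 0.298 CPM, counts per 1000000 counts of the library. Each gene has up to 2 deposited counts, one under its Ensembl identifier and one under the reference name Genome, which were summed. The mitochondrial leucyl-tRNA synthetase gene Lars2 took 17 to 32% of each library, and Genome counts took 5.25, 19 and 15.1% of the Actb, Malat1 and Tfrc libraries. The targeted Actb had 759974, 8964 and 13445 counts in Actb, Malat1 and Tfrc RIA-seq, whereas Malat1 had 19081, 107409 and 102470 and Tfrc 453, 1020 and 1704, so Malat1 was high in both target libraries. All 10 ES cell markers were counted, with 33727 to 65887 counts in sum, against 228 to 366 for 5 fibroblast markers, 47 to 134 for 5 endoderm markers, 19 to 91 for 3 mesoderm markers and 46 to 104 for 2 of 3 neural markers (Sox1 was not listed in any library). Intervals below are at the 95% level and cover counting error only, since no molecular identifiers are described for these reads.

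Taken as one sum, the histone genes gave 48279, 32239 and 58600 counts in the Actb, Malat1 and Tfrc libraries. As a share of the library the Actb library had 4640 CPM (4599 to 4681), the Malat1 library 3199 (3164 to 3234) and the Tfrc library 4026 (3994 to 4059). The Actb library held the highest share and the Malat1 library the lowest, and the 3 intervals did not overlap. A share in such a bulk pull-down depends on capture and on the rest of the library as well as on the RNA present. These cannot be told apart, nor can fewer cells that hold an RNA and less of it per cell. The fold of the summed share was 0.689 (0.680 to 0.699) for Malat1 over Actb RIA-seq, 0.868 (0.857 to 0.878) for Tfrc over Actb and 1.26 (1.24 to 1.28) for Tfrc over Malat1.

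Most other genes lay on the opposite side of 1. A gene entered a distribution of folds when both of its counts were 10 or more. The median fold of Malat1 over Actb RIA-seq was 1.82 over 14572 such genes, whereas the median of the 68 histone genes past this minimum was 0.639. Of these 68, 61 lay below 1, against 11.3% of all genes, and 66 lay below the median of all genes. In Tfrc over Actb RIA-seq the median was 0.827 for all 69 histone genes and 1.56 for 14691 genes, and 68 of the 69 lay below the latter. The gene left out of the first count was Hist1h1t, the testis linker histone, with 12, 4 and 13 counts in Actb, Malat1 and Tfrc RIA-seq. Ranks, which no scaling of a whole library changes, gave the same order. The median histone gene stood at the 2.44th percentile of all genes in Malat1 over Actb and at the 5.22nd percentile in Tfrc over Actb, and 60 of 68 and 53 of 69 histone genes were among the lowest 10% of genes. Between the target libraries, 54 of 68 histone genes were higher in Tfrc than in Malat1 RIA-seq, with a median of 1.38 against 0.867 over 16430 genes, and the median histone gene stood at the 90.3rd percentile.

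Called at a fold of 0.5 or less, 22 of 68 histone genes (32.4%) were lower in Malat1 than in Actb RIA-seq, where 0.954% of all genes were. Of 455 other protein-coding genes with 1 exon, 3.74% were at 0.5 or less there. Of 60 other protein-coding genes of at most 700 bases with 55 to 65% G and C bases, 25% were, nearer to the share of the members. At a fold of 2 or more in Malat1 over Actb were 2 members, Hist2h2be and Hist1h3d, where 42.1% of all genes were. In Tfrc over Actb RIA-seq, 2 of 69 (2.9%) were at 0.5 or less, Hist4h4 and Hist1h4j, beside 0.388% of all genes. Of 467 other protein-coding genes with 1 exon, 2.57% were at 0.5 or less there, near the share of the members. Only 1 member was at 2 or more, Hist2h2be, beside 28.6% of all genes. In Tfrc over Malat1 RIA-seq, 13 of 68 were at 2 or more, where 1.92% of all genes were, and 1 was at 0.5 or less, Hist3h2ba, beside 4.35%. The interval of the fold lay below 1 for 55 of 68 histone genes in Malat1 over Actb, above 1 for 3, and included 1 for 10. In Tfrc over Actb it lay below 1 for 40, above 1 for 5 and included 1 for 24. Such intervals were not counted over all genes. Of all genes, 11.3% had a fold below 1 in Malat1 over Actb and 12.8% in Tfrc over Actb, with medians of 1.82 and 1.56. When folds were divided by the median fold of all genes, a shift that is the same for every gene of a comparison, 59 of 68 histone genes were at 0.5 or less in Malat1 over Actb, beside 8.21% of all genes, and 27 of 69 in Tfrc over Actb, beside 3.85%.

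**Figure D1:**
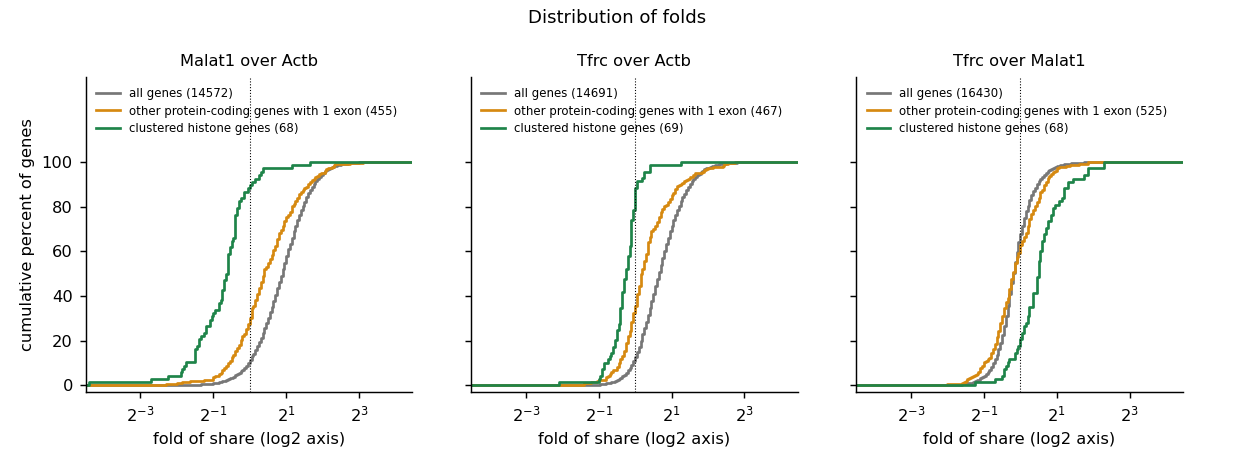
Cumulative percent of genes (vertical axis) at or below each fold of share (horizontal axis, log2 scale) for all genes, for other protein-coding genes with 1 exon and for clustered histone genes, each with 10 or more counts in the pair compared. The histone curve lies to the left of both others in Malat1 over Actb (median 0.639) and Tfrc over Actb (median 0.827) and to the right in Tfrc over Malat1 (median 1.38); the dotted line is a fold of 1.

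The 5 classes differed in how far their shares were apart. H3, H2B and H2A were lower in the Malat1 library by the summed fold, in that order, and H1 and H4 were nearest to the Actb library. The place of H4 rested on Hist1h4d, without which its summed fold was 0.520, between H3 and H2B, and its median of 0.594 was below those of H2B (0.604) and H2A (0.720). In Tfrc RIA-seq the class sums lay between 0.755 and 0.934 of Actb RIA-seq.

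H3 forms a tetramer with H4 at the core of the nucleosome, and its tail carries many of the known chromatin marks. Its 12 genes summed to 4819, 2051 and 5264 counts in the Actb, Malat1 and Tfrc libraries, or 463, 204 and 362 CPM. The summed fold was 0.439 (0.417 to 0.463) for Malat1 over Actb, 0.781 (0.751 to 0.812) for Tfrc over Actb and 1.78 (1.69 to 1.87) for Tfrc over Malat1. Of the 12, 10 were at a fold of 0.5 or less in Malat1 over Actb, beside 0.954% of all genes. In Tfrc over Malat1, 8 were at 2 or more, beside 1.92% of all genes. H3 genes took 9.98, 6.36 and 8.98% of the histone counts of the Actb, Malat1 and Tfrc libraries.

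Hist1h3f had 424, 63 and 322 counts in Actb, Malat1 and Tfrc RIA-seq. Its fold was 0.153 (0.118 to 0.200) in Malat1 over Actb, the lowest of the H3 genes, 0.543 (0.470 to 0.628) in Tfrc over Actb and 3.54 (2.70 to 4.64) in Tfrc over Malat1. Hist1h3e, with 619, 206 and 615 counts, had a fold of 0.344 (0.293 to 0.402) in Malat1 over Actb and 0.710 (0.635 to 0.794) in Tfrc over Actb. Hist2h3c1 had the most counts of the class, 1211, 533 and 1360, from 2 Ensembl identifiers of this symbol. One had 494, 281 and 640 counts and the other, which the annotation does not hold, 717, 248 and 719. Its fold was 0.454 (0.410 to 0.503) in Malat1 over Actb.

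Hist1h3d stood apart from the other H3 genes. It had 228, 474 and 418 counts in the Actb, Malat1 and Tfrc libraries, the lowest count being that of the Actb library. Its fold was 2.15 (1.83 to 2.51) in Malat1 over Actb, 1.31 (1.12 to 1.54) in Tfrc over Actb and 0.611 (0.535 to 0.697) in Tfrc over Malat1. Divided by the median fold of all genes, the first was 1.18 and the second turned to 0.840. Its stem-loop letters were those of most other members, and 24.8% of its 50-base stretches of exon sequence (50-mers) occur in another annotated gene. Its exon was 1249 bases long with 49.6% G and C bases (GC), the lowest GC of the H3 genes. The class medians were 625 bases and 59.9%. The other 11 H3 genes were all below 1 in Malat1 over Actb, the highest being Hist1h3a at 0.672.

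**Figure D2:**
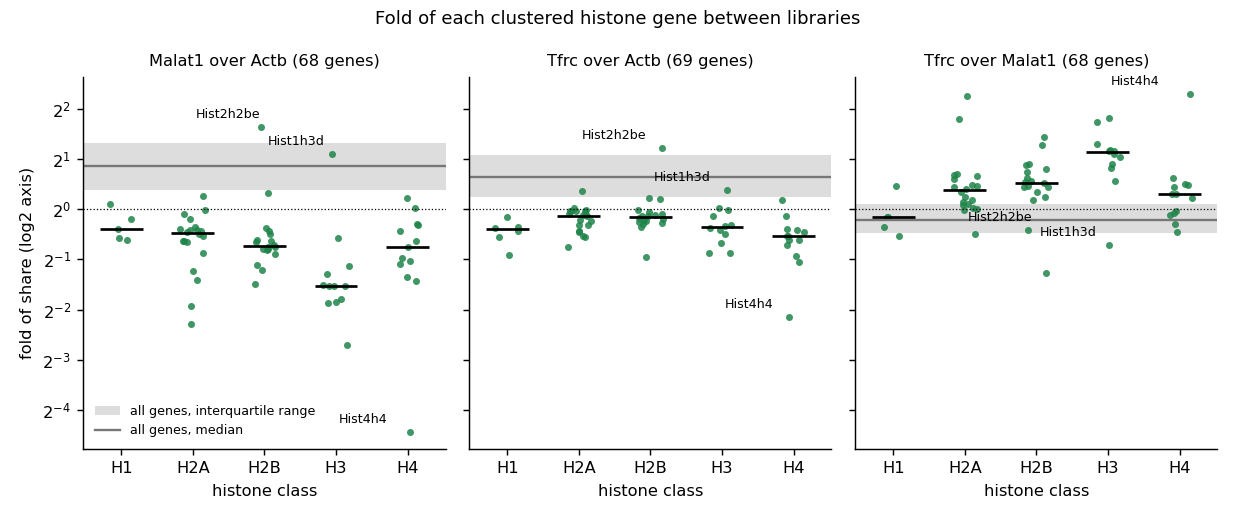
Fold of share of each histone gene (vertical axis, log2 scale) by histone class for Malat1 over Actb, Tfrc over Actb and Tfrc over Malat1 RIA-seq; black bars are class medians, the grey line and band are the median and interquartile range of all genes, and the dotted line is 1. In Malat1 over Actb the H3 median (0.347) is the lowest of the 5 classes, Hist4h4 (0.0461) lies far below the rest, and Hist2h2be (3.10) and Hist1h3d (2.15) lie above the all-gene median of 1.82.

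H4 is the partner of H3 in the tetramer. Its 13 genes summed to 11016, 9569 and 14391 counts, and 1 of them, Hist1h4d, supplied most of these. Hist1h4d had 6500, 7293 and 10328 counts in the Actb, Malat1 and Tfrc libraries. Per kilobase of exon this was 1590, 1841 and 1806 CPM, against a median over all members of 71.6, 43.2 and 52.9. As a share of the library total it was higher in both target libraries, with a fold of 1.16 (1.12 to 1.20) in Malat1 over Actb and 1.14 (1.10 to 1.17) in Tfrc over Actb. This direction turned when folds were divided by the median fold of all genes, to 0.637 and 0.731, and 18% and 21.8% of genes lay below it. Its exon shares 32.3% of its 50-mers with other annotated genes. The H4 fold therefore rested on this gene: the summed fold of the class was 0.897 (0.873 to 0.922) in Malat1 over Actb with it and 0.520 (0.495 to 0.547) without it, and in Tfrc over Actb 0.934 (0.911 to 0.957) and 0.643 (0.617 to 0.671).

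Hist4h4, the single gene of the Hist4 cluster, had 269, 12 and 85 counts in the Actb, Malat1 and Tfrc libraries. Its share was highest in Actb RIA-seq and lowest in Malat1 RIA-seq. Its fold was 0.0461 (0.0258 to 0.0821) in Malat1 over Actb and 0.226 (0.177 to 0.288) in Tfrc over Actb, the smallest of all members in both. Tfrc over Malat1 was 4.91 (2.68 to 8.98), the largest of all members. It is annotated without untranslated regions, shares no 50-mer with another gene, and 133, 4 and 32 of its counts were listed under Genome. Hist1h4j had 492, 186 and 333 counts and a fold of 0.484 (0.421 to 0.556) in Tfrc over Actb. Hist1h4c, with 1097, 520 and 1146 counts, and Hist1h4a, with 477, 237 and 461, had folds of 0.489 (0.441 to 0.543) and 0.513 (0.439 to 0.599) in Malat1 over Actb. As a share of the library total Hist1h4m was level between the same libraries, with 151 and 148 counts and a fold of 1.01. Divided by the median fold of all genes, this was 0.555.

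H2B pairs with H2A in the dimers that flank the tetramer. Its 18 genes held the largest share of the histone counts, 34.3%, 28.9% and 36% in the Actb, Malat1 and Tfrc libraries, with 16573, 9329 and 21099 counts. The summed fold was 0.581 (0.567 to 0.596) in Malat1 over Actb, 0.910 (0.892 to 0.929) in Tfrc over Actb and 1.57 (1.53 to 1.60) in Tfrc over Malat1. Hist1h2bq had 2114, 1186 and 2311 counts and Hist1h2br 2031, 1140 and 2349. Every 50-mer of their exons occurs in both, so how reads were split between them is not known, and both had a fold of 0.579 in Malat1 over Actb. Hist1h2bp, with 1667, 1044 and 2184 counts, had folds of 0.647 (0.598 to 0.699) in Malat1 over Actb and 0.937 (0.879 to 0.998) in Tfrc over Actb.

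A pair of H2B genes with few counts departed from their class. Hist2h2be had 16, 48 and 52 counts in the Actb, Malat1 and Tfrc libraries. Its fold was 3.10 (1.76 to 5.45) in Malat1 over Actb and 2.32 (1.33 to 4.07) in Tfrc over Actb, the largest of all members in both. It is among the 6 members with an annotated stop codon but no stem-loop match after it, and shares no 50-mer with another gene. Its exon was 2618 bases long with 45.3% GC, where the class medians were 571 bases and 57.5%. Hist3h2ba had 47, 57 and 34 counts. Its fold was 1.25 (0.851 to 1.84) in Malat1 over Actb, an interval that holds 1, 0.517 (0.333 to 0.804) in Tfrc over Actb and 0.413 (0.270 to 0.632) in Tfrc over Malat1.

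The 20 H2A genes summed to 9643, 6425 and 11267 counts. The summed fold was 0.688 (0.667 to 0.710) in Malat1 over Actb and 0.835 (0.813 to 0.858) in Tfrc over Actb. Hist1h2ak, the H2A gene with the most counts, had 2124, 874 and 2023, and a fold of 0.425 (0.393 to 0.460) in Malat1 over Actb. Hist1h2ab had 817, 785 and 1153 counts and nearly equal shares in the 3 libraries, 78.5, 77.9 and 79.2 CPM, with folds of 0.992 (0.899 to 1.09) and 1.01 (0.922 to 1.10) over Actb RIA-seq. Hist1h2ao, with 792, 582 and 891 counts, had a fold of 0.759 (0.682 to 0.844) in Malat1 over Actb, and shares every 50-mer with Hist1h2ap. Hist2h2aa2 had 60, 12 and 83 counts, and a fold of 0.206 (0.111 to 0.384) in Malat1 over Actb but 0.989 (0.710 to 1.38) in Tfrc over Actb. Its sequence twin Hist2h2aa1 had 82, 21 and 106 counts. Hist2h2ab, with 59, 45 and 106 counts, had a fold of 1.28 (0.934 to 1.77) in Tfrc over Actb, which is not distinguishable from 1 at this depth.

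H1 binds the linker DNA between nucleosomes and is not part of the nucleosome core. Its 6 genes summed to 6228, 4865 and 6579 counts, with folds of 0.806 (0.777 to 0.837) in Malat1 over Actb and 0.755 (0.730 to 0.782) in Tfrc over Actb. Of the H1 genes past the minimum of 10 counts, 5 in Malat1 over Actb and 6 in Tfrc over Actb, none was at 0.5 or less. Of all genes, 0.954 and 0.388% were. Hist1h1t, left out of Malat1 over Actb by its 12 and 4 counts, had a ratio of 0.344 there. When folds of Malat1 over Actb were divided by the median fold of all genes, Hist1h1a, Hist1h1b, Hist1h1c and Hist1h1e were at 0.371, 0.415, 0.357 and 0.481. Hist1h1d was then at 0.588. Hist1h1e had 2204, 1869 and 2407 counts, and folds of 0.875 (0.823 to 0.931) and 0.781 (0.737 to 0.827) over Actb RIA-seq. Hist1h1c had 1324, 832 and 1664 counts, and folds of 0.649 (0.595 to 0.708) and 0.899 (0.836 to 0.966). Hist1h1b had 1352, 990 and 1280 counts, and folds of 0.756 (0.696 to 0.821) and 0.677 (0.627 to 0.731). As a share of the library total Hist1h1d was level in Malat1 RIA-seq and lower in Tfrc RIA-seq. It had 766, 797 and 794 counts and folds of 1.07 (0.973 to 1.19) and 0.741 (0.671 to 0.818), and 14.3% of all genes lay below the former. H1 was the 1 class whose sum was not higher in Tfrc than in Malat1 RIA-seq, at 0.936 (0.902 to 0.972), and this direction turned under 3 of the other scalings, to 1.06 to 1.08.

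**Figure D3:**
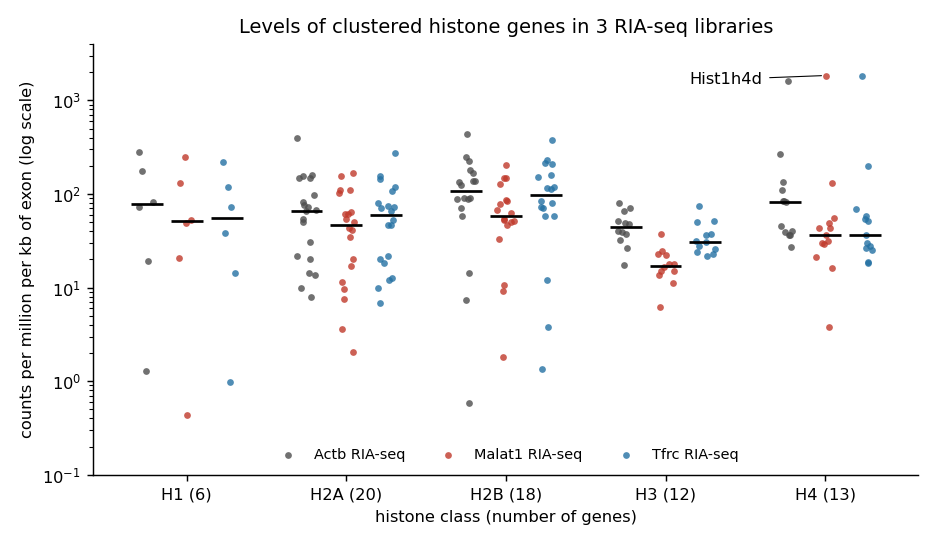
CPM per kilobase of exon (vertical axis, log scale) of each histone gene by class, in Actb (grey), Malat1 (red) and Tfrc RIA-seq (blue); black bars are class medians. Hist1h4d lies above all other genes in the 3 libraries (1590, 1841 and 1806), and the H3 median in Malat1 RIA-seq (17.1) is below those in Actb (44) and Tfrc RIA-seq (31.1).

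Many H2A and H2B genes lie head to head and share a promoter region. In 12 such pairs the starts were 167 to 305 bases apart, with a median of 227.5. The H2B gene had the lower fold in 9 of 12 pairs in Malat1 over Actb and in 5 of 12 in Tfrc over Actb. The pairs of Hist1h2ao with Hist1h2bq and of Hist1h2ap with Hist1h2br are not separate cases. Each gene of the former pair shares every 50-mer with its copy in the latter. The pair of Hist2h2ac and Hist2h2be was the most unequal, with 446, 317 and 607 counts for Hist2h2ac against 16, 48 and 52 for Hist2h2be, and folds in Malat1 over Actb of 0.734 and 3.10. The pair of Hist1h2ak and Hist1h2bn went the other way from most, with folds of 0.425 and 0.708.

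Grouped by stem-loop, the 49 genes with CT after GG had a summed fold of 0.633 (0.622 to 0.644) in Malat1 over Actb and a median of 0.639. The 12 genes with CC or TC, all of H4, had a summed fold of 0.914 (0.889 to 0.940), which includes Hist1h4d, and a median of 0.621. The 8 members with no match or no annotated stop codon had a summed fold of 0.539 (0.505 to 0.576) and a median of 0.579. These medians were close, but the last group includes the 2 members annotated as pseudogenes, in which no window was searched. It is therefore not a group that lacks the stem-loop letters, and the part of the stem-loop in the folds was not tested.

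The members are short and rich in G and C. Their merged exons were 312 to 3821 bases long, with a median of 530, and 62 had a single exon. Their median GC content was 59.5%, against 49.1% over the other protein-coding genes. Among other protein-coding genes, short ones also had lower folds. The 455 with 1 exon had a median of 1.28 in Malat1 over Actb and stood at a median percentile of 23.8, with 3.74% at 0.5 or less. The 128 with 1 exon of at most 700 bases had a median of 1.11 with 10.9% at 0.5 or less, and the 60 of at most 700 bases and 55 to 65% GC had a median of 0.990 with 25% at 0.5 or less. In Tfrc over Actb the medians of these 3 groups were 1.12, 0.933 and 1.05, over 467, 132 and 59 genes. There 2.57, 3.03 and 3.39% of them were at 0.5 or less, near the 2.9% of the members. The histone medians of 0.639 and 0.827 lay below the medians of all 3 groups. The 12 members with exons over 1200 bases had a median of 0.697 in Malat1 over Actb, against 1.86 for 11899 other protein-coding genes of that length. Of these 12, 8 lay below 1 and 4 above, the latter including both members at 2 or more. Of the 46 members of at most 700 bases, 43 lay below 1 and 3 above. The 8 members under 50% GC had a median of 1, with 4 below 1 and 4 above, against 1.90 for 6422 other protein-coding genes. In the higher GC ranges the medians of the members were 0.51 to 0.65. Across the members, Spearman's rho between GC content and the fold of Malat1 over Actb was -0.25 (68 genes) and that between exon length and the fold was 0.148. These are across genes of the same libraries, which are not independent replicates. The part of length and base composition in the histone folds was not tested.

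Near-identical copies limit the reading of single genes. How far they affect the sum is not known, since the handling of reads with several matches is not given. Of the 69 members, 32 shared at least 50% of their 50-mers with another annotated gene, and 7 shared all of them. The 37 below that limit had a summed fold of 0.750 (0.737 to 0.763) in Malat1 over Actb and 0.883 (0.870 to 0.897) in Tfrc over Actb, and the 32 others 0.589 (0.575 to 0.604) and 0.842 (0.826 to 0.859). The sum of the 37 includes Hist1h4d, with 7293 of their 21888 counts in the Malat1 library. The medians of the 37 and the 32 were 0.650 and 0.596 in Malat1 over Actb, and 0.781 and 0.869 in Tfrc over Actb. Another annotated gene overlaps 9 members, among them Hist1h2aj and Hist1h2bm on opposite strands and Hist2h3c1 and Hist2h2aa1 on the same strand, and whether the counting used strand is not given in the sources used here.

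Counts listed under Genome were a small part of the histone counts, 927 counts (1.92%) in the Actb library, 541 (1.68%) in the Malat1 library and 801 (1.37%) in the Tfrc library. Over all genes they were 5.25, 19 and 15.1% of the library. The histone shares depended on single genes: without Hist1h4d they were 1.31, 2 and 1.04%, highest in the Malat1 library, and without both Hist1h4d and Hist4h4 they were 1, 1.99 and 0.971%. The 7 members with 2 or 3 exons had 0.75, 3.29 and 1.65%. The 8 single-exon members annotated without untranslated regions had Genome shares of 7.84, 6.55 and 3.47%, and 4.23, 6.34 and 2.65% without Hist4h4, whereas the 52 single-exon members annotated with them, apart from Hist1h4d, had 0.744, 1.22 and 0.560%. Hist2h3c2, annotated as a pseudogene, is in neither group. Hist1h4d had 379, 42 and 301 Genome counts, the lowest being in Malat1 RIA-seq. Hist2h2bb, a gene of 2 exons with 226, 163 and 265 counts, had 35, 64 and 75 under Genome. Hist3h2ba had 8, 24 and 9, and Hist1h2aa, with 126, 67 and 122 counts, had 13, 21 and 12. With Ensembl-identifier counts alone, over their own totals, the summed histone fold was 0.809 in Malat1 over Actb and 0.974 in Tfrc over Actb, and the medians of all genes were 1.66 and 1.41. The H4 sum was then above 1 in both (1.09 and 1.07), and at 0.978 in Tfrc over Malat1, and the H2B sum in Tfrc over Actb was 1.01.

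**Figure D4:**
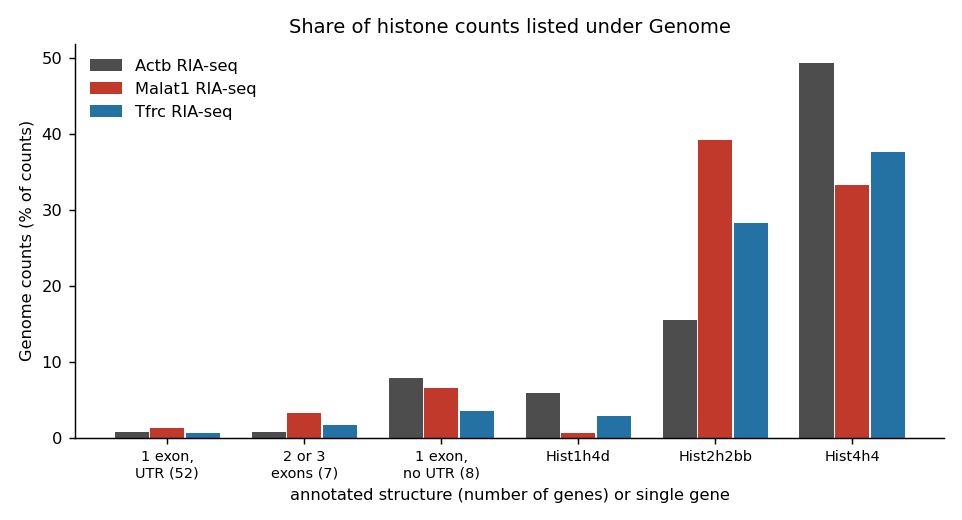
Genome counts as a percent of all counts (vertical axis) in Actb (grey), Malat1 (red) and Tfrc RIA-seq (blue) for histone genes grouped by annotated structure, and for Hist1h4d, Hist2h2bb and Hist4h4 alone (the latter 2 are also in their groups). Single-exon genes without annotated untranslated regions hold more (7.84, 6.55 and 3.47%, or 4.23, 6.34 and 2.65% without Hist4h4) than those with them, apart from Hist1h4d (0.744, 1.22 and 0.560%).

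The replacement histones, which are made also outside S phase and for the most part from polyadenylated mRNAs, lay between the clustered histone genes and all genes. Their medians were 1.09 in Malat1 over Actb and 1.07 in Tfrc over Actb, against 0.639 and 0.827 for the clustered genes and 1.82 and 1.56 for all genes. Of the 11, 5 lay below 1 in Malat1 over Actb, where 11.3% of all genes did, and 8 below the median of all genes. In Tfrc over Actb 2 lay below 1, beside 12.8% of all genes, and 9 below the median of all genes. None was at 0.5 or less in either comparison, beside 0.954 and 0.388% of all genes. H2afz, the gene of H2A.Z, had 9029, 8315 and 12907 counts in Actb, Malat1 and Tfrc RIA-seq and folds of 0.951 and 1.02 over Actb. The H3.3 genes H3f3a, with 1643, 1241 and 2256 counts, and H3f3b, with 1826, 1463 and 2655, had folds of 0.780 and 0.827 in Malat1 over Actb, below 1 as most clustered genes were, and 0.982 and 1.04 in Tfrc over Actb. H2afx, whose gene also holds the stem-loop letters, had 3098, 2478 and 4797 counts and folds of 0.826 and 1.11. H1f0, the replacement linker histone, had 400, 422 and 660 counts and folds of 1.09 and 1.18. H2afy, the gene of macroH2A1, had 476, 1048 and 1210 counts and folds of 2.27 and 1.82.

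The 16 genes of histone mRNA 3′ processing and turnover had a median fold of 1.79 in Malat1 over Actb, close to the 1.82 of all genes, and 1.32 in Tfrc over Actb, below the 1.56 of all genes. In the first, 8 lay below the median of all genes and 1 below 1, and in the second 13 and 2. Slbp, the stem-loop binding protein, had 872, 1558 and 1449 counts and folds of 1.84 (1.70 to 2.00) and 1.19 (1.09 to 1.29). Npat, the activator of histone gene transcription, had 302, 585 and 732 counts and folds of 2.00 and 1.73, and Casp8ap2, another protein of the histone locus body, had 322, 606 and 740 and folds of 1.94 and 1.64. The U7 snRNP subunit genes Lsm10 and Lsm11 had few counts, 26, 16 and 37 for Lsm10 and 60, 124 and 158 for Lsm11. The folds over Actb were 0.635 (0.341 to 1.18) and 1.02 for Lsm10 and 2.13 and 1.88 for Lsm11. Zfp473, a zinc finger protein that works with the U7 snRNP, had 117, 144 and 143 counts and folds of 1.27 and 0.874. Ncbp2, a subunit of the cap-binding complex, was the other gene below 1 in Tfrc over Actb, at 0.903 (0.804 to 1.01), and is named after its value was seen. Eri1, an exonuclease that trims the histone stem-loop, had 358, 603 and 743 counts and folds of 1.74 and 1.48.

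Histone chaperones and genes of S phase also had medians above those of the clustered histone genes and below those of all genes. The 13 chaperone genes had medians of 1.42 and 1.21 in Malat1 and Tfrc over Actb, and the 22 S phase genes had 1.29 and 1.11, against 1.82 and 1.56 for all genes. Below 1 were 2 chaperone genes and 2 S phase genes in Malat1 over Actb, beside 11.3% of all genes, and 2 and 5 in Tfrc over Actb, beside 12.8%. None of either list was at 0.5 or less in either comparison, beside 0.954 and 0.388% of all genes. At 2 or more were 2 chaperone genes and 4 S phase genes in Malat1 over Actb, and 1 and 2 in Tfrc over Actb, beside 42.1% and 28.6% of all genes.

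**Figure D5:**
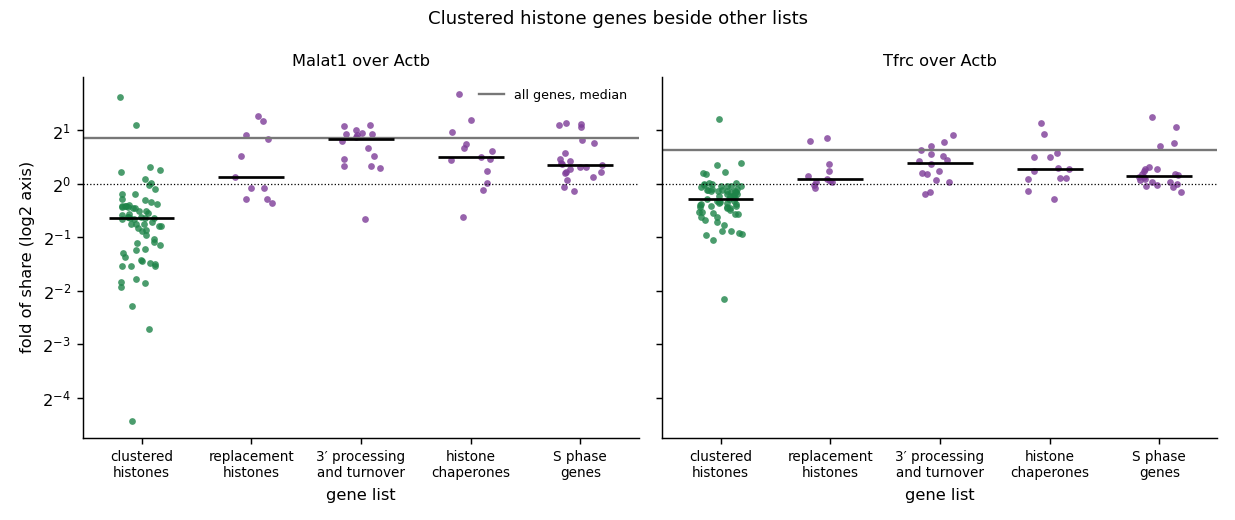
Fold of share of each gene (vertical axis, log2 scale) in Malat1 over Actb and Tfrc over Actb RIA-seq for the clustered histone genes and 4 other lists; black bars are list medians, the grey line is the median of all genes and the dotted line is 1. The clustered histone median (0.639 and 0.827) lies below 1 in both panels, and those of the replacement histones (1.09 and 1.07), 3′ processing genes (1.79 and 1.32), chaperones (1.42 and 1.21) and S phase genes (1.29 and 1.11) lie above it.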

How the data were processed

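RIA-seq was carried out in 3 libraries of E14 ES cells, 1 per condition, taken from the labels. The authors deposited raw read counts per gene, whole numbers without normalization, listed under an Ensembl identifier or the reference name Genome. The submitters' processing notes name Bowtie 0.12.7 and the builds mm9 and NCBIM37. The counting rule, the strand setting, the handling of reads with several matches and the meaning of Genome are not given in the sources used here, and multiple matches and copies can move counts between near-identical histone genes. Libraries were made from DNase-treated RNA with the Ovation V2 and KAPA kits.

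Both counts of a gene name and chromosome were summed and expressed as a share of all counts of the library. A share carries a Wilson interval and a fold an interval on the log scale from both counts, at the 95% level, with a pseudocount of 0. A gene entered distributions when each of its 2 counts was 10 or more, and a gene was called at a fold of 2 or more or 0.5 or less. Exons, stop codons and sequence came from GENCODE M1 and the NCBIM37 genome, in which 98.6% of 24080 identifiers were found. The motif window after the stop codon was chosen after the data were seen. Python 3.11.15, numpy 2.4.6, pandas 2.3.3, scipy 1.17.1, pysam 0.24.0, samtools 1.23.1 and matplotlib 3.10.9 were used. The computation of the fold intervals was checked on simulated counts with counting error only. That check cannot show how the intervals hold for real libraries, which also vary in other ways.

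The members and lists were chosen with earlier results of these data known. Named genes were the 3 members with the highest mean share in each class, the 3 largest and 3 smallest folds in each pair of libraries, members with at least 10 Genome counts that were 10% or more of their counts, the 3 targets, and chosen genes of the lists. Other members are named for a sequence feature, a pair or an exception, after their values were seen. Alternatives were other scalings, other library totals, Ensembl-identifier or Genome counts alone, a minimum of 50 counts, and leaving out members.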

Additional observations from a re-analysis of the deposited data

How the results depend on the processing

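Of 234 values recomputed under other settings, 76 moved by less than the counting interval (for counts of genes, at most 1.5 times), 151 moved by more and 7 turned direction, all of them class sums. For a median fold, the interval of the summed fold was used, scaled to the median. It does not measure the uncertainty of the median. The summed histone fold stayed below 1 in Malat1 and Tfrc over Actb RIA-seq and above 1 in Tfrc over Malat1 under every setting tried. The cause of these changes was not tested, apart from the scalings, which multiply every gene of a comparison by 1 factor. With the median gene scaled to 1, Malat1 over Actb had summed fold 0.379, median 0.351, number at 0.5 or less 59, number at 2 or more 0, class fold H1 0.443, H2A 0.378, H2B 0.319, H3 0.241, H4 0.493, while Tfrc over Actb had summed fold 0.557, median 0.53, number at 0.5 or less 27, number at 2 or more 0, class fold H1 0.484, H2A 0.536, H2B 0.584, H3 0.501, H4 0.599, while Tfrc over Malat1 had summed fold 1.45, median 1.59, class fold H1 1.08, H2A 1.4, H2B 1.81, H3 2.05, H4 1.2. With the 75th percentile of counts as the scale, Malat1 over Actb had summed fold 0.38, median 0.352, number at 0.5 or less 59, number at 2 or more 0, class fold H1 0.444, H2A 0.379, H2B 0.32, H3 0.242, H4 0.494, while Tfrc over Actb had summed fold 0.54, median 0.514, number at 0.5 or less 32, number at 2 or more 0, class fold H1 0.47, H2A 0.52, H2B 0.566, H3 0.486, H4 0.581, while Tfrc over Malat1 had summed fold 1.42, median 1.56, class fold H1 1.06, H2A 1.37, H2B 1.77, H3 2.01, H4 1.18. With totals that leave out the 10 genes with the most counts, Malat1 over Actb had summed fold 0.431, median 0.4, number at 0.5 or less 55, number at 2 or more 0, class fold H1 0.504, H2A 0.43, H2B 0.363, H3 0.275, H4 0.561, while Tfrc over Actb had summed fold 0.618, median 0.589, number at 0.5 or less 17, number at 2 or more 0, class fold H1 0.538, H2A 0.595, H2B 0.648, H3 0.556, H4 0.665, while Tfrc over Malat1 had summed fold 1.43, median 1.57, class fold H1 1.07, H2A 1.38, H2B 1.78, H3 2.02, H4 1.19, and the histone share of the library was 0.966%, 0.417% and 0.597% in the Actb, Malat1 and Tfrc libraries. With totals that leave out Actb, Malat1 and Tfrc, Malat1 over Actb had summed fold 0.645, median 0.598, class fold H1 0.755, H2A 0.644, H2B 0.544, H3 0.411, H4 0.839, while Tfrc over Actb had summed fold 0.809, median 0.771, number at 0.5 or less 5, class fold H1 0.704, H2A 0.779, H2B 0.849, H3 0.728, H4 0.871, and the histone share of the library was 0.502%, 0.324% and 0.406% in the Actb, Malat1 and Tfrc libraries. With Ensembl-identifier counts only, Malat1 over Actb had summed fold 0.809, median 0.738, class fold H1 0.941, H2A 0.804, H2B 0.667, H3 0.511, H4 1.09, while Tfrc over Actb had summed fold 0.974, median 0.918, number at 0.5 or less 1, class fold H1 0.846, H2A 0.937, H2B 1.01, H3 0.868, H4 1.07, while Tfrc over Malat1 had summed fold 1.2, median 1.32, number at 0.5 or less 0, class fold H1 0.899, H2A 1.17, H2B 1.52, H4 0.978, and the histone share of the library was 0.48%, 0.388% and 0.468% in the Actb, Malat1 and Tfrc libraries. Without the member with the most counts (of all, or of the class), Malat1 over Actb had summed fold 0.616, class fold H1 0.769, H2A 0.762, H4 0.52, while Tfrc over Actb had summed fold 0.826, class fold H2A 0.879, H2B 0.929, H4 0.643, while Tfrc over Malat1 had summed fold 1.34, class fold H2A 1.15, H4 1.24, and the histone share of the library was 0.402%, 0.248% and 0.332% in the Actb, Malat1 and Tfrc libraries. With Genome counts only, added after seeing the data, Malat1 over Actb had summed fold 0.166, while Tfrc over Actb had summed fold 0.215, while Tfrc over Malat1 had summed fold 1.29. For members with under 50% of 50-mers shared, added after seeing the data, Malat1 over Actb had summed fold 0.75, median 0.65, number at 0.5 or less 10, while Tfrc over Actb had summed fold 0.883, median 0.781, while Tfrc over Malat1 had summed fold 1.18, median 1.26. At a minimum of 50 counts, Malat1 over Actb had number at 2 or more 1, while Tfrc over Actb had number at 2 or more 0, while Tfrc over Malat1 had median 1.36, number at 0.5 or less 0. For single-exon members only, the Genome share of histone counts was 2.2% and 1.36% in the Actb and Malat1 libraries. Leaving out Hist1h4d, added after seeing the data, changed the Genome share of histone counts to 1.31%, 2% and 1.04% in the Actb, Malat1 and Tfrc libraries, and leaving out Hist4h4 to 1.65%, 1.67% and 1.31%, and leaving out both to 1%, 1.99% and 0.971%. No paired analysis was possible because there is 1 library per condition, and for the same reason no replicate could be left out. The differences between libraries and conditions cannot be told apart. Depth limits members with few counts, such as Hist1h1t, Hist2h2be, Hist2h2aa2 and Hist3h2ba.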
